A study of Mus musculus with 2 samples.

Results

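Potassium channel genes were followed across the cell classes of the embryonic mouse cortex. The set holds 94 of the 32285 features counted, namely every gene whose symbol begins with *Kcn* except 5 noncoding symbols, the antisense transcript *Kcnq1ot1* and the opposite-strand transcripts *Kcnab3os*, *Kcnd3os*, *Kcnmb4os1* and *Kcnmb4os2*. Membership rested on the symbol alone. The measurements come from 10x Genomics single-cell libraries, 1 from each of 2 embryos at E16.5, called embryos 4 and 5 after their library names. Both were WT control animals of the Eomes-Cre mouse line, their titles name the line EoMltt3 and give no treatment, and the tissue field reads brain hemispheres although the extraction protocol states that cortex was taken. There was 1 condition, so cell classes were compared within it, and the embryos rather than the cells were the replicates (n = 2). Every pair of values below gives embryo 4 first and embryo 5 second, as CPM. For CPM, the unique molecular identifiers (UMIs) of a gene were summed over the cells of 1 class in 1 embryo and scaled to the same total for every class.

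Potassium channels let K+ leave the cell and so set the resting potential, end the action potential and space the spikes that follow. Voltage-gated Kv channels open on depolarisation, calcium-activated channels link spiking to calcium entry, inward rectifiers (Kir) hold the membrane near the potassium potential or couple it to G proteins and ATP, and K2P channels carry the leak current. Most pore-forming subunits work with auxiliary proteins, among them the KChIP partners of Kv4 (*Kcnip1* to *Kcnip4*), the Kv1 beta subunits (*Kcnab*), the BK beta subunits (*Kcnmb*) and the *Kcne* peptides. Radial glial cells (RGCs) are the neural stem cells of the cortex, intermediate progenitor cells (IPCs) arise from them, excitatory neurons are born from both, and GABAergic interneurons migrate in from the medial and caudal ganglionic eminences (MGE and CGE).

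The libraries held 12825 and 12289 barcodes with 124318613 and 117679925 UMIs, of which 9932 and 10416 cells were kept, and 46 barcodes occurred in both libraries, 27 of them among the kept cells. Of 25 clusters, formed without the *Kcn* genes, 17 received a class name from marker genes, and 8 unnamed clusters with 31.2% and 32.6% of the cells entered no comparison. The 11 classes with at least 30 cells in each embryo ran from 51 and 45 pericyte-like to 1626 and 1699 migrating excitatory neuron-like cells. Nearly all markers were higher inside their class than outside it, the exceptions being *Rorb* in upper-layer neuron-like cells, *Nkx2-1* and *Lhx8* in MGE interneuron-like cells, *Vip* and *Egfr* in CGE interneuron-like cells, *Penk* in LGE-type cells (named for the lateral ganglionic eminence) and *Hemgn* in erythroid-like cells. The erythroid-like cluster also had *Tyrobp* and *C1qb*, markers of microglia, and *Sst*, *Fabp7* and *Mt3* among its leading genes. It is given below as a class that should lack neuronal channels, and its summed *Kcn* level was 546 and 573 CPM.

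Among the neural and vascular classes, expression of potassium channel genes was lowest in the progenitors and the pericyte-like cells and highest in Cajal-Retzius-like cells, the early-born *Reln*-expressing neurons of the cortical surface. The summed *Kcn* level was 1718 and 1768 CPM in RGC-like, 2214 and 2245 CPM in IPC-like and 4109 and 4407 CPM in migrating excitatory neuron-like cells. It then was 4324 and 4410.3 CPM in upper-layer and 5129.6 and 5296 CPM in deep-layer neuron-like cells, and reached 7059 and 8461 CPM in Cajal-Retzius-like cells. The GABAergic classes lay near the excitatory neurons, with 3994 and 4032 CPM in MGE interneuron-like, 3690.1 and 3622 CPM in CGE interneuron-like and 4006 and 3167 CPM in LGE-type cells. The CGE value depended on the clustering and was 1854 CPM at the coarser Leiden resolution 0.5, near the RGC-like level. Pericyte-like cells, the contractile cells that wrap capillaries, held 1734 and 1449 CPM, which overlapped the range of the RGC-like class. Beside these values, the median UMI count per cell ranged from 2631 in the erythroid-like cells of embryo 5 to 15397 in the Cajal-Retzius-like cells of embryo 4, and its part in the order of the classes was not tested.

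**Figure D1:**
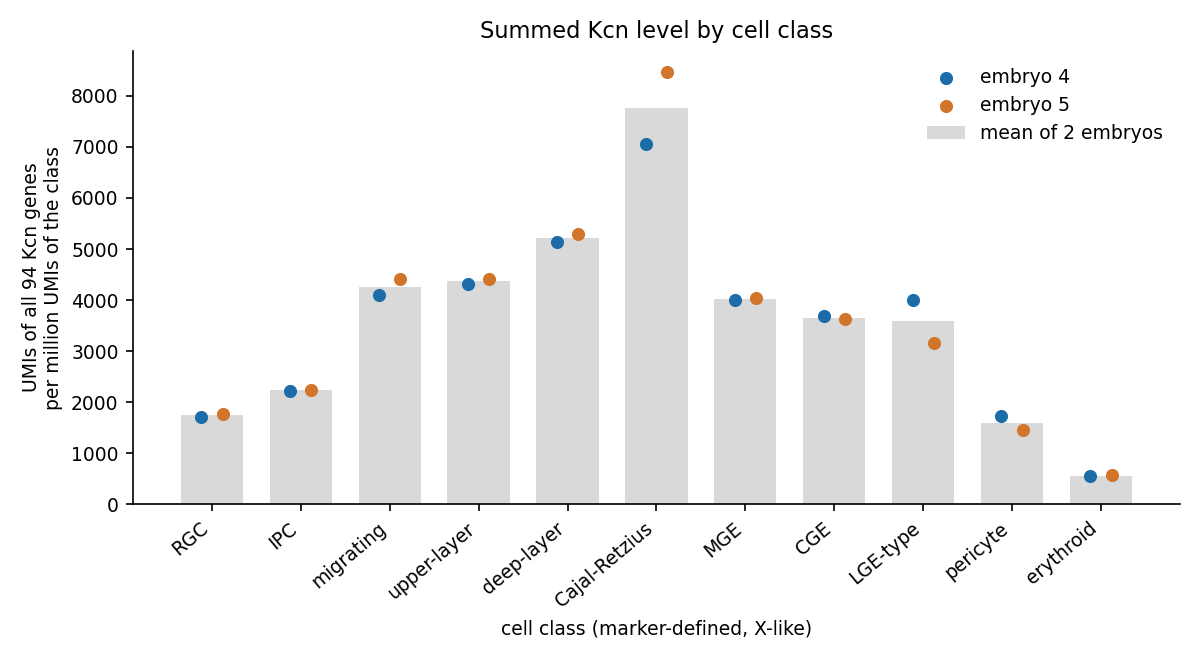
Summed level of the 94 *Kcn* genes in CPM (vertical axis) in the named cell classes (horizontal axis). Bars give the mean of the 2 embryos and points the single embryos, which lie at 1718 and 1768 in RGC-like and at 7059 and 8461 in Cajal-Retzius-like cells.

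In the progenitor, excitatory neuron, Cajal-Retzius-like and pericyte-like classes, 3 genes made up most of this sum. The 3 leading genes gave less in the others, 38.6% in MGE and 47.0% in CGE interneuron-like, 36.5% in LGE-type and 28.1% in erythroid-like cells. Which genes led changed from class to class. *Kcnh7*, an erg-type voltage-gated channel, *Kcnk10*, the K2P leak channel TREK-2, and *Kcnd2*, an A-type channel, together gave 54.7% of the sum in RGC-like cells. *Kcnq3*, a subunit of the M-current that restrains repetitive firing, led the sum in migrating, upper-layer and deep-layer neuron-like cells, with 26.0%, 28.7% and 35.3%. *Kcnc2*, a fast delayed rectifier, led in MGE interneuron-like cells with 14.6%, *Kcnd2* in CGE interneuron-like cells with 24.6% and *Kcnh7* in Cajal-Retzius-like cells with 36.8%. In pericyte-like cells the lead fell to *Kcnj8*, the pore subunit of the vascular ATP-sensitive channel, with 38.2%. Of the 94 genes, 36 reached a mean of at least 20 CPM in some class, 8 of them highest in deep-layer neuron-like, 8 in Cajal-Retzius-like, 5 in MGE and 4 in CGE interneuron-like cells. For 30 of the 36, both embryos of the highest class lay above both embryos of the next class, and for 10 the highest mean was at least 4 times the next.

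**Figure D2:**
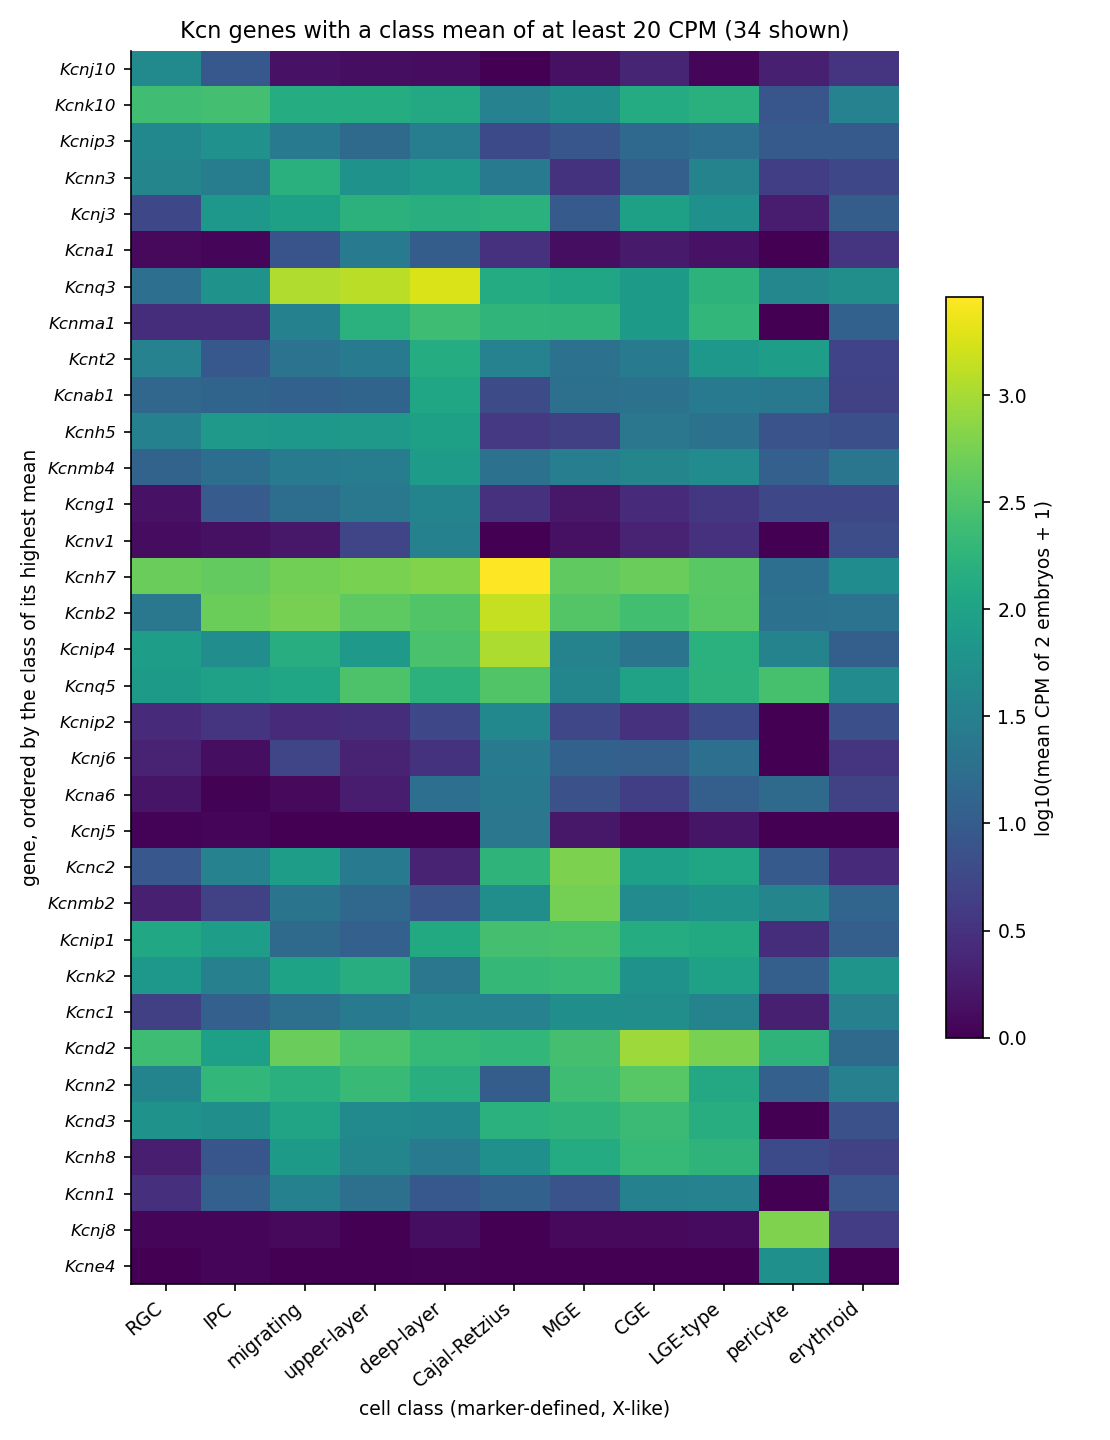
Levels of 34 of the 36 *Kcn* genes with a mean of at least 20 CPM in some class (rows) across the 11 named classes (columns). Colour gives log10 of the mean CPM of the 2 embryos plus 1, and *Kcnq3* in the excitatory neurons, *Kcnh7* in Cajal-Retzius-like cells and *Kcnj8* in pericyte-like cells stand out as the strongest fields.

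Among the voltage-gated families, Kv1 was low throughout, and its most abundant member *Kcna1*, an axonal channel, was highest in upper-layer neuron-like cells at 26.0 and 25.4 CPM. The Kv2 delayed rectifiers consisted mainly of *Kcnb2*, at 24.7 and 21.5 CPM in RGC-like and 568 and 554 CPM in migrating excitatory neuron-like cells. Of the Kv7 family, *Kcnq3* stood at 1856 and 1823 CPM in deep-layer neuron-like and 121 and 96.3 CPM in MGE interneuron-like cells, and *Kcnq5* at 178 and 155 CPM and 47.1 and 28.6 CPM. Both were thus lower in MGE interneuron-like cells. The silent subunits, which form no channel of their own and modify Kv2, were led by *Kcng1*, at 34.8 and 36.1 CPM in deep-layer neuron-like and 0.837 and 0.454 CPM in MGE interneuron-like cells.

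Cajal-Retzius-like cells carried the highest level of 8 of the 36 genes. *Kcnh7* reached 2636 and 3080.2 CPM there and stood at 627 and 645 CPM in the next class, the deep-layer neuron-like cells. *Kcnb2* was at 1329.6 and 1491 CPM and the KChIP gene *Kcnip4* at 843 and 1298 CPM. These 3 genes gave 68.8% of the sum. Less abundant genes with their highest level of the named classes here included *Kcnip2*, another KChIP, at 34.4 and 46.4 CPM, and 2 subunits of the G-protein-gated GIRK channels, *Kcnj6* at 27.9 and 22.0 CPM and *Kcnj5* at 15.8 and 29.3 CPM. *Kcnj6* was higher, at 48.0 and 38.1 CPM, in an unnamed cluster of 469 cells. No other class had a mean of *Kcnj5* above 1 CPM, and 3 UMIs over both embryos of the Cajal-Retzius-like class correspond to 1.58 CPM. *Kcnn2*, an SK channel gene of the afterhyperpolarisation, was low here at 13.9 and 4.89 CPM, and in the other neural classes it ran from 36.9 and 33.1 CPM in RGC-like to 342 and 380.1 CPM in CGE interneuron-like cells. Cajal-Retzius-like cells entered the fit but no comparison, so these levels are a description without a test.

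The first step of the excitatory lineage, from RGC-like to IPC-like cells, went with a change of individual channels. *Kcnb2*, the G-protein-gated *Kcnj3* (GIRK1), *Kcnn2*, *Kcnc2* and *Kcnq3* rose, and *Kcnj10* (Kir4.1, the glial potassium-buffering channel), *Kcnt2* (a sodium-activated channel) and *Kcnd2* fell. *Kcnb2* went from 24.7 and 21.5 CPM to 489 and 467 CPM (log2 fold change 4.41, SE 0.235, edgeR adjusted p = 7.62e-13). *Kcnj3* went from 4.48 and 4.63 CPM to 63.4 and 75.2 CPM (log2 fold change 3.96, SE 0.154, edgeR adjusted p = 4.12e-15). *Kcnj10* went from 38.5 and 49.8 CPM to 7.63 and 8.28 CPM (log2 fold change -2.43, SE 0.205, edgeR adjusted p = 3.03e-09). For each of these genes the values of the classes did not overlap between embryos. The other genes of the largest changes were *Kcnn2* (log2 fold change 2.49), *Kcnc2* (2.13), *Kcnt2* (-2.02), *Kcnq3* (1.79), *Kcnd2* (-1.40), *Kcnh5*, an eag-type channel (1.22), and *Kcnk2*, the leak channel TREK-1 (-1.11). Of the 70 *Kcn* genes that passed the filter on low counts, 23 were higher in IPC-like cells, 10 were lower and 37 were not called at an adjusted p under 0.05 (edgeR), where 20.1% of all 15697 genes tested were called higher and 23% lower. The median log2 fold change was 0.15 over the members and -0.02 over all genes. All 8 genes of a list of cell-cycle genes were lower in IPC-like cells, and their part in these differences was not tested.

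Shares of cells with a UMI were set beside those of the erythroid-like class. The part of RNA from outside the cell in these levels was not tested. After thinning each cell to 2000 UMIs, *Kcnb2* was detected in 4.06% and 3.23% of RGC-like and 41.5% and 39.1% of IPC-like cells, against 5.23% and 4.63% of erythroid-like cells. *Kcnq3* was detected in 3.33% and 3.53% of RGC-like, 7.11% and 9.67% of IPC-like and 7.84% and 5.56% of erythroid-like cells. The RGC-like shares of both genes were below those of the erythroid-like class, and the IPC-like shares of *Kcnq3* overlapped those of the erythroid-like class. Erythroid-like barcodes held fewer UMIs before thinning, so their shares are not a measured background level. *Kcnj3* was detected in 0.973% and 0.826% of RGC-like cells, against 1.31% and 0.926% of erythroid-like cells. *Kcnk2* was detected in 11.7% and 12.2% of RGC-like and 5.73% and 4.94% of IPC-like cells, against 8.50% and 17.6% of erythroid-like cells. For *Kcnk2* the RGC-like shares lay within the erythroid-like range and the IPC-like shares below it. Before thinning, the *Kcnk2* shares were 40.1% and 38.6% in RGC-like, 22.5% and 18.8% in IPC-like and 13.8% and 19.3% in erythroid-like cells. The part of background in its fall was not tested. Cells under 2000 UMIs were left out, 19 and 16 RGC-like, 11 and 10 IPC-like and 14 and 6 erythroid-like cells. Before thinning, the *Kcnq3* shares were 11.9% and 10.9% in RGC-like cells, at a median of 11259 and 10000 UMIs per cell, and 12.6% and 9.65% in erythroid-like cells, at 3592 and 2631 UMIs.

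Excitatory neurons, taken as the mean of the upper-layer and deep-layer neuron-like classes, differed from RGC-like cells in 50 of the 70 genes (edgeR). Of these 70 genes 60% were called higher and 11.4% lower, where 35.2% of all genes tested were called higher and 35.6% lower. The members thus stood apart by direction, not by the number called. The CPM printed for the excitatory neurons are plain means of both classes, whereas the fit averages the log levels. A log2 fold change can therefore differ from the ratio of the printed values. The 7 tested calcium- or sodium-activated channel genes and the 3 Kv1 beta genes were all higher in the neurons. *Kcnma1*, the pore of the BK channel, was at 191 and 209 CPM in the neurons and at 2.34 and 1.33 CPM in RGC-like cells (log2 fold change 6.97, SE 0.177, edgeR adjusted p = 8.45e-19). *Kcnq3* was at 1551 and 1544 CPM against 16.7 and 18.4 CPM (log2 fold change 6.68, SE 0.240, edgeR adjusted p = 6.98e-17). *Kcnq3* and *Kcnma1* were thus separated from the progenitors in each embryo. *Kcnj10* went the other way, with 38.5 and 49.8 CPM in RGC-like cells and 0.369 and 0.275 CPM in the neurons (log2 fold change -6.76, SE 0.273, edgeR adjusted p = 1.63e-15). Other large differences were rises of *Kcng1* (6.05), *Kcnj3* (5.32), *Kcnh8*, an elk-type channel (5.22), *Kcnb2* (4.20), *Kcnc1*, a fast delayed rectifier (3.32), and *Kcnn2* (2.57 on the log2 scale). After thinning, *Kcnc1* was detected in 5.51% and 5.27% of upper-layer and 5.98% and 6.08% of deep-layer neuron-like cells. These shares overlapped those of erythroid-like cells, 5.23% and 9.26%. Its level was 20.7 and 41.4 CPM in erythroid-like but 0 and 1.99 CPM in pericyte-like cells, and the part of background was not tested. The value of *Kcnh8* was 6.07 without embryo 4 and 4.65 without embryo 5.

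Among the genes that fell was *Kcnk10*, at 242 and 249 CPM in RGC-like cells and 128 and 129 CPM in the neurons (log2 fold change -0.69, SE 0.08, edgeR adjusted p = 6.79e-08). *Kcnd2* was at 232 and 254 CPM and 259 and 247 CPM, a small rise in the fit (log2 fold change 0.28, SE 0.122, edgeR adjusted p = 0.0446) with embryo values that overlapped, and *Kcnh7* differed by 0.62. In all, 42 members were higher, 8 lower and 20 not called, where 35.2% of all genes tested were called higher and 35.6% lower (edgeR). The median log2 fold change was 1.43 over the members and -0.01 over all genes.

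Migrating excitatory neuron-like cells, which entered no comparison, gave a further point between the progenitors and the layers. *Kcnq3* was already at 1035 and 1182 CPM there, above its IPC-like level of 56.8 and 61.1 CPM, whereas *Kcnma1* was at 28.6 and 36.1 CPM, against 1.88 and 1.85 CPM in IPC-like and 158 and 166 CPM in upper-layer neuron-like cells. *Kcnb2* was high from the IPC-like class onward. *Kcnd2* was at 93.5 and 85.9 CPM in IPC-like cells and at 387 and 529 CPM in migrating cells, higher in both embryos. *Kcnn3*, an SK channel gene, had its highest level of all classes in migrating cells, at 157 and 158 CPM.

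**Figure D3:**
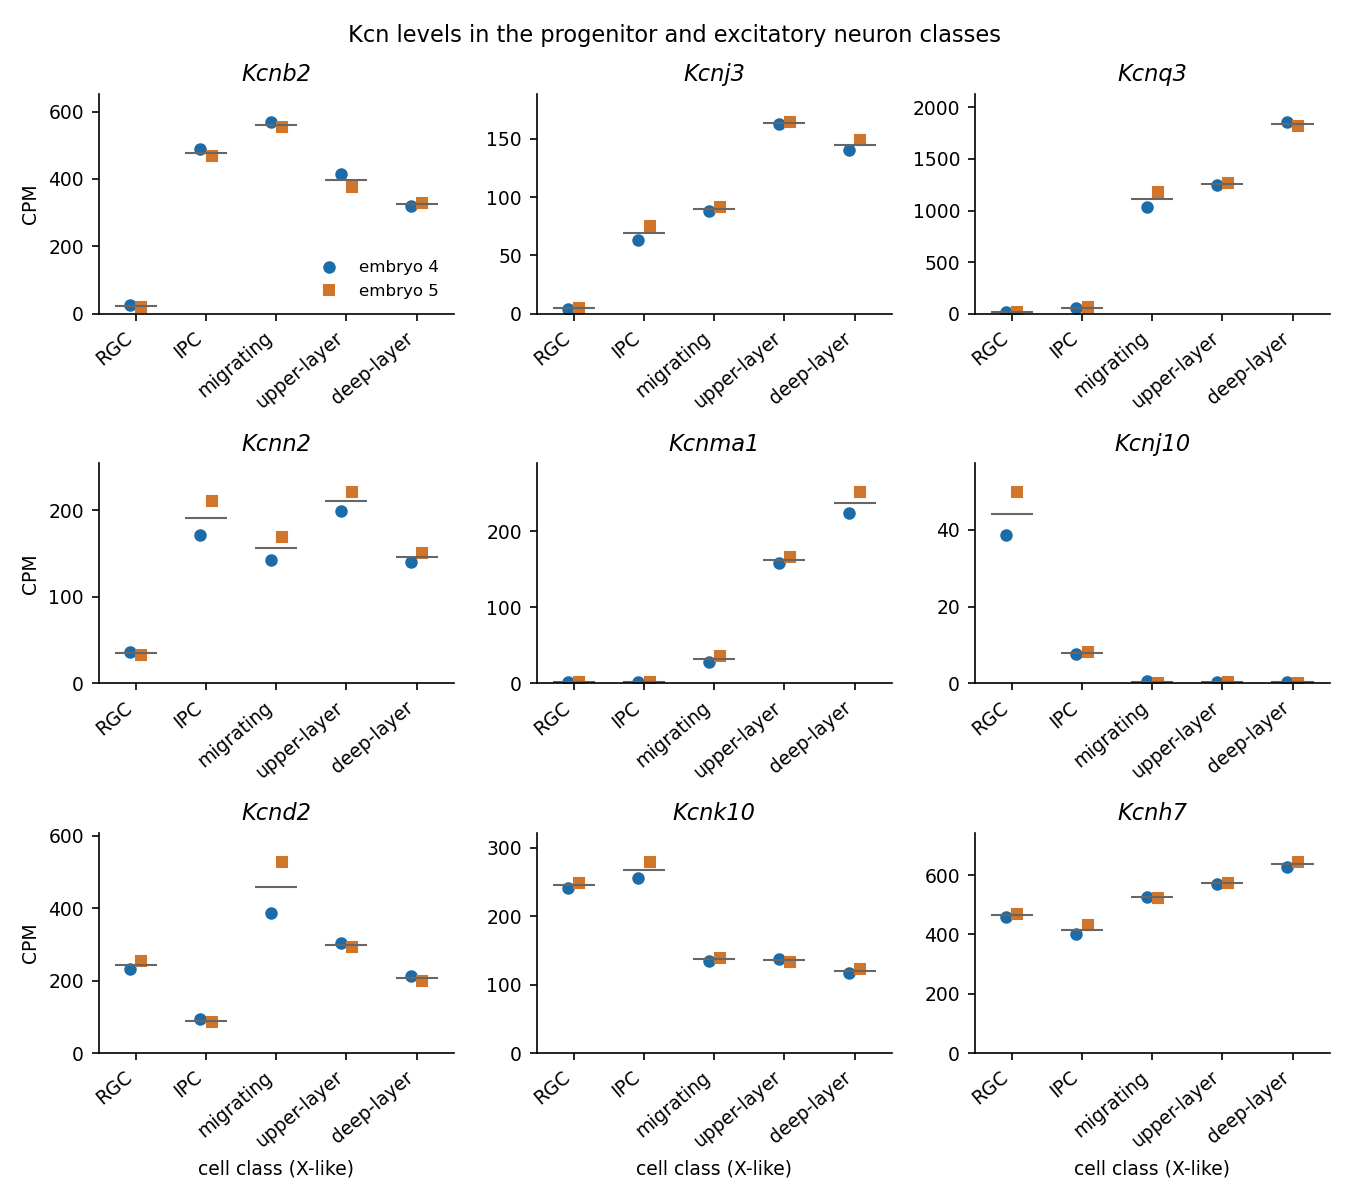
Levels in CPM (vertical axis) of 9 *Kcn* genes across RGC-like, IPC-like, migrating excitatory, upper-layer and deep-layer neuron-like cells (horizontal axis), with points for the embryos and a short line at the mean of each class. *Kcnj10* drops from 38.5 and 49.8 in RGC-like cells to under 1 CPM in the neurons, *Kcnb2* is high from IPC-like cells onward, and *Kcnma1* reaches over 100 CPM only in the layers.

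At the main settings, deep-layer neuron-like cells had more of the KChIP subunits than upper-layer neuron-like cells, and the other auxiliary families were mixed. All 4 KChIP genes were higher in the deep-layer class, as were the Kv1 beta gene *Kcnab1*, the BK beta gene *Kcnmb4* and the silent subunit gene *Kcnv1*. *Kcnip1* was at 120.0 and 126 CPM in deep-layer and 12.6 and 8.10 CPM in upper-layer neuron-like cells (log2 fold change 3.67, SE 0.328, edgeR adjusted p = 5.75e-09). *Kcnab1* was at 91.6 and 131 CPM and 13.1 and 10.5 CPM (log2 fold change 3.33, SE 0.193, edgeR adjusted p = 3.35e-12). *Kcnv1* was at 34.9 and 28.3 CPM and 4.65 and 4.05 CPM (log2 fold change 2.95, SE 0.266, edgeR adjusted p = 1.78e-08). These 3 genes were higher in both embryos. Of the 4 BK beta genes 1 was higher and 1 lower, of the 3 Kv1 beta genes 1 was higher, and neither of the 2 tested *Kcne* genes nor *Kcnrg* was called (edgeR). Among the named genes that form a channel of their own, *Kcnt2* had the largest rise in the deep-layer class, at 114 and 156 CPM against 25.3 and 26.3 CPM (log2 fold change 2.48). The rises of *Kcnip4*, *Kcnmb4* and *Kcnip3* were 2.14, 1.64 and 1.11 on the log2 scale. That of *Kcnip4*, at 269 and 308 CPM in deep-layer and 65.3 and 74.5 CPM in upper-layer neuron-like cells, depended on the filter on cells, since the log2 fold change was -1.51 with cells of at least 500 detected genes and -0.58 with at most 5% mitochondrial counts, in place of at least 1000 genes and at most 10%. The deep-layer class then held 1572 and 1697 cells and 1077 and 1204 cells, in turn, in place of 805 and 826. The part of this change in class size was not tested.

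Upper-layer neuron-like cells in turn had more of *Kcnc2*, *Kcnk2* and *Kcna1*. *Kcnk2* was at 135 and 146 CPM in upper-layer and 21.0 and 24.5 CPM in deep-layer neuron-like cells (log2 fold change -2.53, SE 0.118, edgeR adjusted p = 8.75e-14). The deep-layer level of *Kcnk2* was below its level in erythroid-like cells, 52.7 and 67.9 CPM. *Kcnc2* was at 28.1 and 24.5 CPM in upper-layer and 1.77 and 0.675 CPM in deep-layer neuron-like cells (log2 fold change -4.27, SE 0.537, edgeR adjusted p = 1.19e-06), or -5.07 without embryo 4 and -3.86 without embryo 5. *Kcna1* was at 26.0 and 25.4 CPM and 11.1 and 7.88 CPM (log2 fold change -1.34, SE 0.221, edgeR adjusted p = 5.49e-05). All 3 were higher in the upper-layer class in both embryos. The abundant *Kcnq3* was higher in the deep-layer class at 1856 and 1823 CPM against 1245 and 1266 CPM (log2 fold change 0.64, SE 0.188, edgeR adjusted p = 0.0102), whereas *Kcnq5*, another M-channel gene, was lower there at 178 and 155 CPM against 271 and 343 CPM (log2 fold change -0.79, SE 0.147, edgeR adjusted p = 0.000176). The lower *Kcnq5* level holds for the named deep-layer class only. Unnamed clusters of 968 and 502 cells matched the deep-layer markers best but did not meet the naming rule. *Kcnq5* was at 1466 and 1603 CPM in the first and at 367 and 553 CPM in the second. Of the members, 24 were higher in the deep-layer class, 13 were lower and 33 were not called, where 18.1% of all genes were called higher and 15.7% lower (edgeR). Their median log2 fold change was 0.38, against 0.01 over all genes.

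MGE interneuron-like cells, which include the somatostatin interneurons, had more *Kcnc2* and *Kcnmb2* than any other class. *Kcnc2*, whose Kv3 channels permit fast spiking in mature interneurons, was at 589 and 584 CPM in this class and at 14.9 and 12.6 CPM in the excitatory neurons (log2 fold change 6.54, SE 0.275, edgeR adjusted p = 5.54e-15). *Kcnmb2*, a BK beta subunit that inactivates the channel, was at 545 and 548 CPM and 11.3 and 8.59 CPM (log2 fold change 5.74, SE 0.128, edgeR adjusted p = 1.27e-19). *Kcnip1* was at 227 and 337 CPM and 66.3 and 67.1 CPM (log2 fold change 2.86, SE 0.229, edgeR adjusted p = 5.89e-10). The embryos were alike in the first 2 genes, whereas *Kcnip1* was higher in embryo 5 in this class and higher in embryo 4 in RGC-like cells, where it was at 139.8 and 94.1 CPM. The excitatory mean of *Kcnip1* joins classes that differed, with 120.0 and 126 CPM in deep-layer and 12.6 and 8.10 CPM in upper-layer neuron-like cells, and the averaged logs of the fit put the fold change above the ratio of the printed means. After thinning to 2000 UMIs, *Kcnmb2* was detected in 44.3% (95% exact binomial interval 40.6% to 48.1%) and 44.7% (95% exact binomial interval 40.8% to 48.6%) of MGE interneuron-like cells and in 3.27% and 2.78% of erythroid-like cells. Its BK pore gene *Kcnma1* was at 174 and 183 CPM in MGE interneuron-like cells, within the range of the upper-layer and deep-layer neuron-like classes.

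Excitatory neurons exceeded the MGE interneuron-like class in the M-channel genes *Kcnq3* and *Kcnq5*, the GIRK gene *Kcnj3* and the SK gene *Kcnn3*. *Kcnq3* was at 1551 and 1544 CPM in the excitatory neurons and 121 and 96.3 CPM in MGE interneuron-like cells (log2 fold change -3.93, SE 0.206, edgeR adjusted p = 2.96e-13). *Kcnj3* was at 151 and 157 CPM and 7.54 and 9.31 CPM (log2 fold change -4.32, SE 0.157, edgeR adjusted p = 4.46e-16). *Kcnn3* was at 70.5 and 60.4 CPM and 2.09 and 2.27 CPM (log2 fold change -5.01, SE 0.248, edgeR adjusted p = 1.01e-13). None of these pairs of groups overlapped. The other large deficits in MGE interneuron-like cells were those of *Kcng1* (-5.53), *Kcnh5* (-4.66), *Kcnq5* (-2.70) and *Kcnip4* (-2.18 on the log2 scale), the last of which was -2.99 without embryo 4 and -1.62 without embryo 5. Outside the 10 largest changes, *Kcnh8* and the A-type channel gene *Kcnd3* were higher in the interneurons, the latter at 148 and 199 CPM against 39.7 and 44.0 CPM (log2 fold change 1.93, SE 0.154, edgeR adjusted p = 1.05e-09). In all, 18 members were higher in MGE interneuron-like cells, 20 were lower and 32 were not called, where 16.8% of all genes were called higher and 18% lower (edgeR), and the median was -0.16 over the members and 0.00 over all genes.

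Within the interneurons, *Kcnmb2*, *Kcnc2* and *Kcnk2* were higher in MGE and *Kcnj3* and *Kcnd2* higher in CGE interneuron-like cells. The comparison uses the same MGE sums as the one with excitatory neurons. *Kcnmb2* was at 36.7 and 54.4 CPM in CGE and 545 and 548 CPM in MGE interneuron-like cells (log2 fold change -3.64, SE 0.161, edgeR adjusted p = 2.49e-13). *Kcnc2* was at 87.8 and 89.3 CPM and 589 and 584 CPM (log2 fold change -2.81, SE 0.286, edgeR adjusted p = 1.56e-07), and *Kcnk2* at 55.0 and 57.6 CPM and 216 and 212 CPM (log2 fold change -2.0, SE 0.128, edgeR adjusted p = 8.73e-11). For these 3 genes the MGE values exceeded the CGE values in both embryos. In the other direction, *Kcnj3* was at 90.0 and 91.6 CPM in CGE and 7.54 and 9.31 CPM in MGE interneuron-like cells (log2 fold change 3.35, SE 0.188, edgeR adjusted p = 9.46e-12). *Kcnd2* reached its highest level of all classes in CGE interneuron-like cells, 906 and 893 CPM against 255 and 286 CPM in MGE interneuron-like cells (log2 fold change 1.65, SE 0.145, edgeR adjusted p = 1.37e-08). The related *Kcnd3* was at 191 and 260.3 CPM and 148 and 199 CPM and was not called, so the A-type genes did not all differ by the test. Further differences were those of *Kcnh5* (2.63), the SK gene *Kcnn1* (2.19), *Kcnma1* (-1.30), *Kcnk10* (1.29) and *Kcnq5* (1.29 on the log2 scale).

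Of the members, 9 were higher in CGE interneuron-like cells, 8 were lower and 53 were not called, where 6.68% of all genes were called higher and 6.28% lower (edgeR). The median was 0.06 over the members and -0.01 over all genes. Beside these values, 6 of 8 cell-cycle genes were higher in CGE than in MGE interneuron-like cells, and the median UMI count per cell was 4400.5 and 5489.5 against 6435 and 6393, and their part was not tested. The CGE interneuron-like class also depended on the clustering. At Leiden resolution 0.5 it held 111 and 177 cells in place of 336 and 400, 33 members were called and the log2 fold change of *Kcnd2* was -0.93. The calls of *Kcnn1* (0.43) and *Kcnq5* (0.47) were lost there, that of *Kcnq5* also with doublets kept (0.39), and those of *Kcnj3* (1.06) and *Kcnh5* (1.40) at resolution 2. The CGE share of *Kcnk2* overlapped that of erythroid-like cells, at 6.42% and 9.97% after thinning against 8.50% and 17.6%.

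LGE-type GABAergic cells, which entered no comparison, had *Kcnd2* at 625 and 519 CPM, *Kcnh8* at 155 and 195 CPM and *Kcnma1* at 215 and 176 CPM. *Kcnc2* differed between the embryos in this class, at 169 and 54.3 CPM. It was below the MGE interneuron-like level in both embryos, and its order against the CGE interneuron-like class was not settled.

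**Figure D4:**
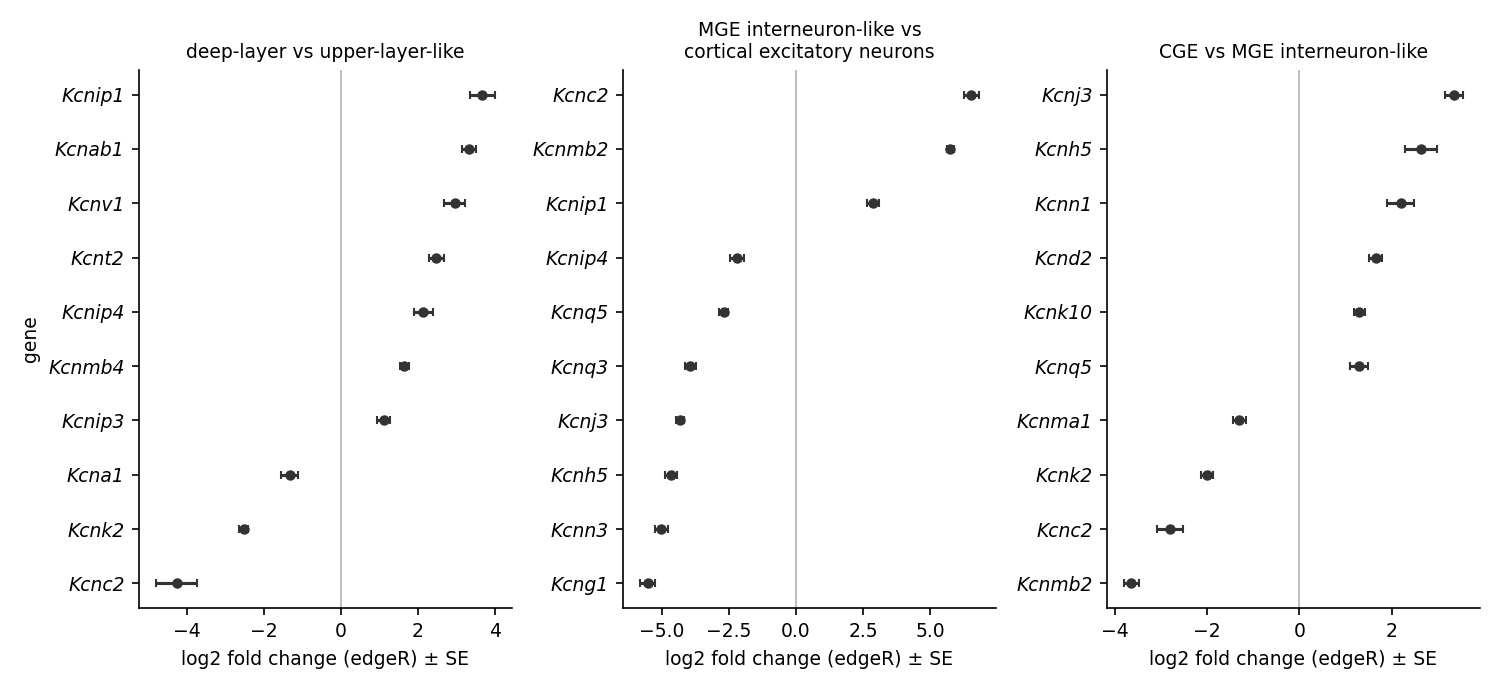
Log2 fold changes with their SE, derived from the F statistic of each test (horizontal axis), of the 10 *Kcn* genes named in each of 3 comparisons. The comparisons are between neuron classes, deep-layer against upper-layer, MGE interneuron-like against excitatory neurons, and CGE against MGE interneuron-like. Points right of 0 are higher in the class named first. *Kcnc2* and *Kcnmb2* lie at 6.54 and 5.74 in the MGE panel and at -2.81 and -3.64 in the CGE panel.

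Pericyte-like cells had more of *Kcnj8* and *Kcne4* than the neural classes and less of many neuronal channels. *Kcnj8* encodes the Kir6.1 pore, which with the sulfonylurea receptor SUR2 of *Abcc9* forms the ATP-sensitive channel of vascular mural cells. *Kcne4* encodes a single-pass auxiliary subunit that inhibits Kv channels. *Kcnj8* lies on chromosome 6 at 142564837 to 142571614 (GRCm38.p6, mm10), 16247 bases from *Abcc9*, *Kcne4* on chromosome 1 at 78816911 to 78820032 and *Kcnj10* on chromosome 1 at 172341210 to 172374085. The 250 bases before the annotated RefSeq start of these 3 genes are shown because each gene had its highest level in 1 non-neuronal or progenitor class, the pericyte-like class for the first and second and the RGC-like class for the last. They are written 5′ to 3′ on the gene's strand, in lower case, with E-box letters (CANNTG) in capitals.
Kcnj8, chr6:142571615-142571864, minus strand: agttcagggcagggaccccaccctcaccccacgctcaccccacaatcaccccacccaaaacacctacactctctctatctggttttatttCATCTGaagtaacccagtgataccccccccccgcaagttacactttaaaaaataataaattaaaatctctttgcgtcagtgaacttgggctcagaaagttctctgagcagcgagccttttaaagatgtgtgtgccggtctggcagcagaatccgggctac
Kcne4, chr1:78816661-78816910, plus strand: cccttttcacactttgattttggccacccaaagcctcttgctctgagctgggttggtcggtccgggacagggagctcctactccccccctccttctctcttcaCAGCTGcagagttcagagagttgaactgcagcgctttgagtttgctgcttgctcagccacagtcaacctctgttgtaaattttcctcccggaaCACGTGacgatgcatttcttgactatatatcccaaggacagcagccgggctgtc
Kcnj10, chr1:172340960-172341209, plus strand: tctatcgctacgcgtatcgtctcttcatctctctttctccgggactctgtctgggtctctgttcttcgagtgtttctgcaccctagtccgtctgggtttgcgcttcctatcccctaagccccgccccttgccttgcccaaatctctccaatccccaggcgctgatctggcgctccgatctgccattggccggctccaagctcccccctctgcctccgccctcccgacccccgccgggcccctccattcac
These windows had a GC content of 49.2%, 53.2% and 62.0% with 6, 7 and 17 CpG dinucleotides, where the medians of 32851 RefSeq promoter windows of the same length were 52.4% and 6. They held 1, 2 and 0 E-boxes, a motif found in 66.2% of all windows, and none of the 3 held TATAAA on either strand, which occurs in 12.4% of all windows. A match of letters is a description, not a binding site.

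*Kcnj8* was at 637 and 580.1 CPM in pericyte-like cells and at no more than 0.688 CPM in any embryo of the neural classes, and at 6.38 and 0 CPM in erythroid-like cells. It had 669 UMIs in pericyte-like cells and 12 in the 4 neural classes compared (RGC-like, upper-layer, deep-layer and MGE interneuron-like), a ratio of pooled CPM of 3510 with a 95% counting interval of 1996 to 6828. The fitted difference, taken against the mean of the log levels of these 4 classes, was large (log2 fold change 12.08, SE 0.262, edgeR adjusted p = 4.25e-19), and was 13.12 without embryo 4 and 11.91 without embryo 5. The thinned share of cells with a *Kcnj8* UMI was 66.7% (95% exact binomial interval 52.1% to 79.2%) and 71.1% (95% exact binomial interval 55.7% to 83.6%) in pericyte-like and 0.654% and 0% in erythroid-like cells, where 0 of 108 cells in embryo 5 allows a share of up to 2.78% when 3 counts are taken as the limit, and the upper end of the exact binomial interval is 3.36%. Both embryos thus showed the gene in most pericyte-like cells. *Kcne4* was at 55.6 and 49.8 CPM, with 58 UMIs against 1, a ratio of 3652 with a counting interval of 630 to 146708. *Kcnrg*, named as a potassium channel regulator, was at 11.8 and 25.9 CPM against a mean of 3.74 and 4.37 CPM in the neural classes (log2 fold change 2.07, SE 0.384, edgeR adjusted p = 0.000116). The BK beta gene *Kcnmb1*, known from smooth muscle, had 11 UMIs in pericyte-like cells and 5 in the neural classes, at 3.37 and 17.9 CPM. *Kcnq5* was the second most abundant member in pericyte-like cells, at 298 and 269 CPM, close to its upper-layer level of 271 and 343 CPM.

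Many neuronal channel genes were low or had no UMI in pericyte-like cells. *Kcnd3* and *Kcnma1* had 0 UMIs there, which, with 3 UMIs over both embryos as the limit that a count of 0 allows (2.74 CPM), placed them at least 23.9-fold and 43.2-fold lower than in the pooled neural classes. *Kcnip1* had 2 UMIs (ratio of pooled CPM 66.7, counting interval 18.5 to 551), *Kcnj3* had 1 (78.1, 14.0 to 3086) and *Kcnc1* had 1 (24.2, 4.34 to 957). *Kcnh7*, at 30.3 and 3.99 CPM, was 28.7-fold lower in pooled CPM, and *Kcnk10*, at 6.74 and 7.97 CPM, was 22.7-fold lower. The fitted log2 fold changes of *Kcnj3*, *Kcnh7* and *Kcnc1* (-5.22, -5.00 and -4.59) differed between the embryos, being -10.53, -7.21 and -3.52 without embryo 4 and -4.26, -4.24 and -9.94 without embryo 5. Not every abundant member was low, since *Kcnd2* was at 210.5 and 144 CPM and *Kcnt2* at 67.4 and 102 CPM. *Kcnb2* and *Kcnq3* were uneven between the embryos, at 38.7 and 0 CPM and at 69.0 and 7.97 CPM, near their levels in erythroid-like cells of 19.1 and 20.7 CPM and 46.3 and 53.2 CPM. Against the mean of the log levels of the neural classes, 12 members were higher, 25 were lower and 33 were not called, where 22.2% of all genes were called higher and 23.3% lower (edgeR). The median log2 fold change was -1.83 over the members and -0.22 over all genes. The class rests on 51 and 45 cells, and all 8 cell-cycle genes were higher in it than in the mean of the log levels of the neural classes.

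**Figure D5:**
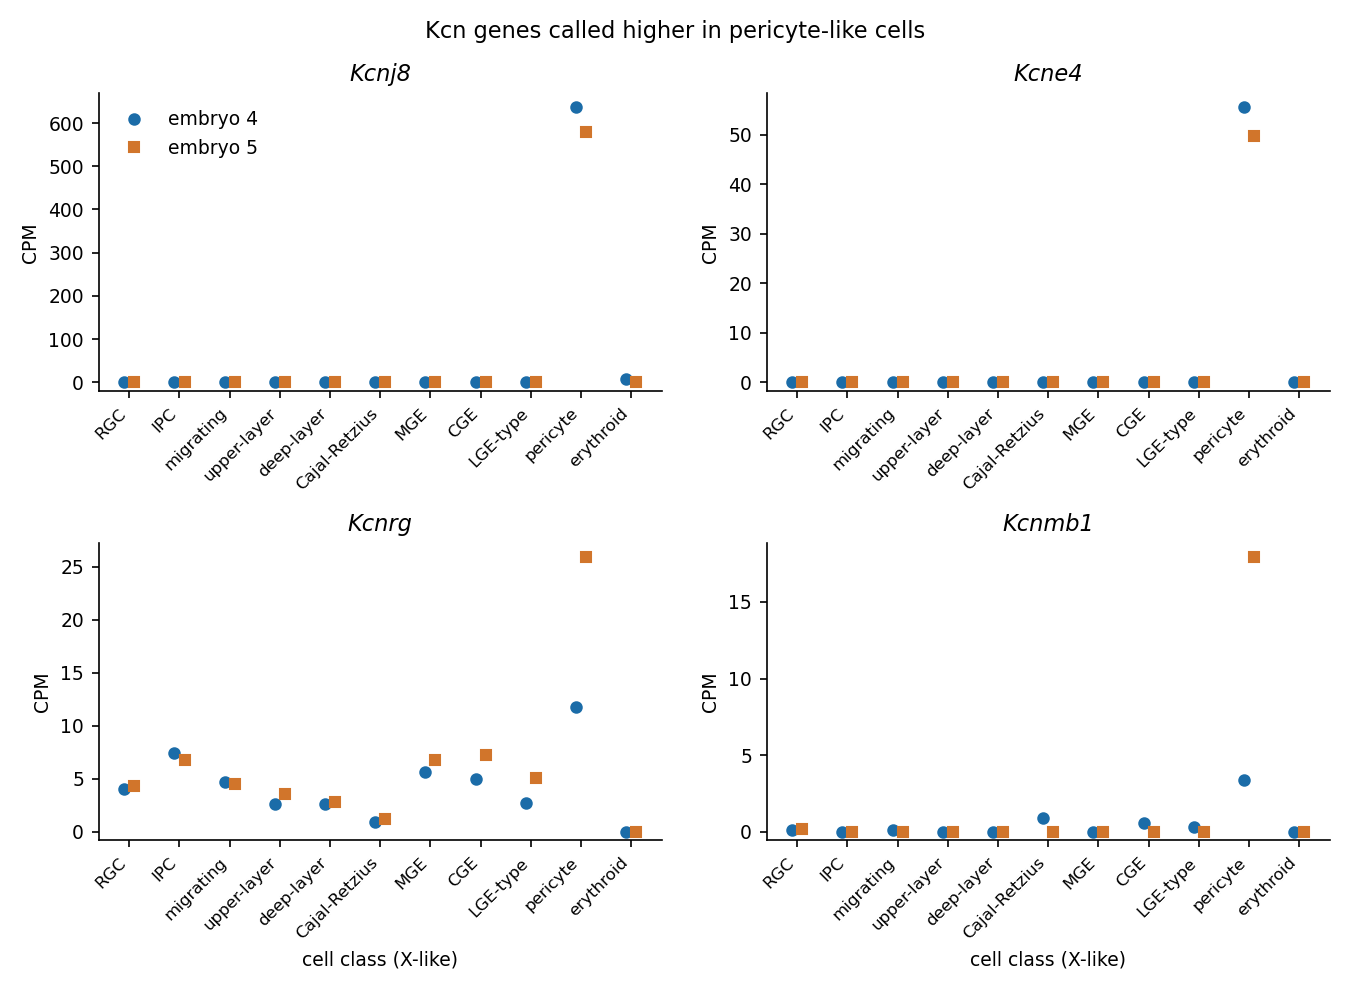
Levels in CPM (vertical axis) of *Kcnj8*, *Kcne4*, *Kcnrg* and *Kcnmb1* in the 11 named classes (horizontal axis), 1 point per embryo. *Kcnj8* lies at 637 and 580.1 in pericyte-like cells and at or near 0 elsewhere, and the *Kcnmb1* values of the pericyte-like class, 3.37 and 17.9, differ between the embryos.

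*Kcnj10*, a channel of glia in the adult brain, was highest in RGC-like cells at 38.5 and 49.8 CPM, next to 7.63 and 8.28 CPM in IPC-like cells and under 2 CPM on average in every neuron class. After thinning it was detected in 8.84% (95% exact binomial interval 7.31% to 10.6%) and 8.79% (95% exact binomial interval 7.32% to 10.4%) of RGC-like cells, against 1.31% and 0% of erythroid-like cells, with the same limits of 2.78% and 3.36% for 0 of 108 cells. The auxiliary subunit gene *Kcne1l* was also highest in RGC-like cells, at 17.7 and 18.0 CPM. *Kcnk5*, a K2P channel gene, was at 10.5 and 8.55 CPM there.

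Proteins that work with these channels were examined as 2 lists. Their genes, like the *Kcn* genes, were kept out of the clustering. *Abcc9* and *Dpp10* were among the 10 leading genes of the pericyte-like and MGE interneuron-like clusters once these were formed. The lists were chosen with earlier results of these data known, so the values are a description. Of 16 channel partners, 13 passed the filter on low counts. In excitatory neurons against RGC-like cells 11 were higher and 1 was lower, in deep-layer against upper-layer neuron-like cells 7 were higher and 1 lower, and in MGE interneuron-like cells against excitatory neurons 6 were higher and 2 lower (edgeR). The shares of all genes called higher and lower there were, in turn, 35.2% and 35.6%, 18.1% and 15.7%, and 16.8% and 18%. *Abcc9* was at 1536 and 1238 CPM in pericyte-like cells, beside *Kcnj8*, whereas *Abcc8*, the SUR1 receptor of neuronal ATP-sensitive channels, was at 71.5 and 66.9 CPM in excitatory neurons and 0.689 and 1.26 CPM in RGC-like cells. *Dpp10*, an auxiliary subunit of Kv4 channels, was at 2346 and 2563 CPM in MGE interneuron-like cells, 116 and 113 CPM in CGE interneuron-like cells and 253 and 299 CPM in excitatory neurons. CGE interneuron-like cells, the class with most *Kcnd2*, had less of *Dpp10* than MGE interneuron-like cells. *Ank3*, the scaffold that holds Kv7 channels at the axon initial segment, was at 1083 and 1152 CPM in excitatory neurons and 37.7 and 28.4 CPM in RGC-like cells. For the other 3 comparisons the partners split as 3 higher and 1 lower in IPC-like against RGC-like cells, 2 higher and 3 lower in CGE against MGE interneuron-like cells, and 1 higher and 6 lower in pericyte-like cells. Over all genes the shares were, in turn, 20.1% and 23%, 6.68% and 6.28%, and 22.2% and 23.3%.

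All 15 genes of the potassium transport list, the sodium pump and the cation-chloride cotransporters, were tested. In IPC-like against RGC-like cells 1 was higher and 8 were lower, in excitatory neurons against RGC-like cells 4 were higher and 9 lower, and in pericyte-like cells 8 were higher and 3 lower (edgeR). The shares of all genes called higher and lower there were, in turn, 20.1% and 23%, 35.2% and 35.6%, and 22.2% and 23.3%. *Slc12a2* (NKCC1), which brings in sodium, potassium and chloride, was at 340.1 and 375 CPM in pericyte-like cells and 51.6 and 63.0 CPM in RGC-like cells. *Slc12a5* (KCC2), which extrudes chloride with potassium in mature neurons, was at 23.0 and 22.9 CPM in MGE interneuron-like cells and 3.86 and 3.27 CPM in excitatory neurons (log2 fold change 2.88, SE 0.218, edgeR adjusted p = 2.34e-10). The remaining counts were 5 higher and 1 lower in deep-layer against upper-layer neuron-like cells, 5 higher and 2 lower in MGE interneuron-like cells against excitatory neurons, and 2 higher and 4 lower in CGE against MGE interneuron-like cells. Over all genes the shares were, in turn, 18.1% and 15.7%, 16.8% and 18%, and 6.68% and 6.28%.

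The other 58 members stayed under a mean of 20 CPM in every class, 33 of them under 5 CPM. No UMI of *Kcna10*, *Kcng4* or *Kcnk16* was found in any kept cell, and 26 further genes had between 1 and 99 UMIs in all. The 24 genes that did not pass the filter on low counts included *Kcnj2*, *Kcnj4*, *Kcnj14* and *Kcnj16* of the inward rectifiers, which at these counts could not be placed in any class. The members with the highest levels were also long genes. Of the 21 genes with a class mean of at least 100 CPM, 19 span more than 100 kb, with a median of 364 kb, against 2 of 15 genes at 20 to 100 CPM and 2 of 58 under 20 CPM. The tested members had a median span of 51.8 kb and all matched tested genes one of 25.2 kb, and whether reads from introns were counted is not given in the sources used here, so a gene's share of the summed level is a share of counted UMIs, not corrected for length. On the annotation, 41 members overlap another gene, 37 of them only on the opposite strand, and *Kcnd3*, *Kcnip1*, *Kcnk2* and *Kcnk4* overlap a gene on their own strand, so their counts are uncertain to that extent.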

How the data were processed

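The authors deposited unnormalized UMI counts, 1 matrix for each embryo (cortex, papain, 10x Genomics 3′ v3.1). The submitters' processing notes name Cell Ranger 7.0.0, the matrix headers 7.1.0, and mm10. Intron counting, strand use and separate litters are not given in the sources used here, and p-values measure only the spread between these 2 embryos.

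A barcode was kept if it had 1000 or more detected genes and no more than 10% of its counts from mitochondria. Doublets were scored against 2 simulated doublets per cell and the highest scores removed at 0.8% per 1000 cells. Clustering used 2000 variable genes, without *Kcn* genes and without the channel partner and potassium transport genes. It used 30 principal components, 20 neighbours and Leiden resolution 1 (scanpy 1.11.5, leidenalg 0.10.2, scikit-learn 1.9.0, SciPy 1.17.1, Python 3.11.15). A cluster was called X-like where the mean log2 ratio of a class's markers, inside against outside with 10 CPM added, was at least 0.5 and led the next of 17 marker classes by 0.25, at least 3 markers were detected in 10% of its cells, and its 10 leading genes held no fewer own than other markers, with at least 1 own marker or 2 cycling genes. This scoring rule was set after the clusters were seen. The members, markers and lists were chosen with earlier results of these data known.

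UMIs were summed per embryo and class. Classes with at least 30 cells in each embryo entered 1 edgeR quasi-likelihood fit (edgeR 4.0.16, TMM, filterByExpr, R 4.3.3), with Benjamini-Hochberg adjustment over all 15697 genes and a call at an adjusted p under 0.05. A printed SE is the size of the log2 fold change divided by the square root of the F statistic of its test. Fibroblast-like cells (1 and 27) were left out. On simulated counts, genes changed 2-fold were recovered at 77.5% for excitatory neurons against RGC-like cells (15384 genes), 64% for MGE interneuron-like cells against excitatory neurons (15355), 61% for the layers (15362), 59.5% for IPC-like against RGC-like cells (15451), 49% for CGE against MGE interneuron-like cells (15392) and 33% for pericyte-like cells (14854), and 2.94% to 10.9% of calls were false. The false share was above the 0.05 threshold except for the layers and the pericyte-like cells. The simulation changed few genes, held the rest equal between the compared classes and drew all sums independently. In the data many more genes differed, so these shares may not carry over. Sums of 1 embryo share an animal and are therefore paired, and the correlations of their deviations ran from 0.0148 to 0.19. Alternatives were DESeq2 (1.42.0) as test and as size factors, no filter on low counts, the embryo as a block, only the compared classes, other cell filters and clusterings, and each embryo left out. Intervals cover counting error only.

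Values are given for up to 10 called genes per comparison with the largest log2 fold change among those moving the same way in both embryos and reaching a mean of 20 CPM, for the most abundant member of each of 15 families, and for genes with a class mean of at least 100 CPM. Other members named were chosen after their values were seen. Positions and sequences are RefSeq's on GRCm38.p6, where all 94 symbols matched. A few genes that the rule covers are not reported here.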

Additional observations from a re-analysis of the deposited data

Results flagged for a closer look

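The 5 noncoding symbols left out of the set had UMIs of their own in the kept cells. *Kcnq1ot1*, the antisense transcript of the imprinted *Kcnq1* domain, had 45467 UMIs and was highest in IPC-like cells at 278 and 284 CPM. *Kcnmb4os2* had 1615 UMIs and was highest in deep-layer neuron-like cells at 14.2 and 17.3 CPM, the class in which *Kcnmb4* was highest as well. *Kcnd3os* had 206 UMIs, *Kcnab3os* 82 and *Kcnmb4os1* 44. In the IPC-like cluster of 1420 cells *Kcnq1*, which *Kcnq1ot1* overlaps on the opposite strand, was at 1.05 and 1.04 CPM. Strand use was not stated, and how far reads of the other transcripts and their partner genes were kept apart was not tested.

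In clusters without a class name, 2 members had a mean at least 2 times that of every named class. *Kcnq5* had a mean of 1534.34 CPM (1466 and 1603) in a cluster of 968 cells led by *Gm49678*, *Ldb2* and *Kirrel3*, where its highest named class, the Cajal-Retzius-like cells, had a mean of 326 CPM. *Kcnh5* had a mean of 197.76 CPM (176 and 219) in a cluster of 1390 cells led by *Mfap4*, *Slc17a6* and *Cdh8*, against 91.8 CPM in deep-layer neuron-like cells. Other members exceeded the named classes there by less, such as *Kcnn2*, at 420.0 and 559 CPM in a cluster of 977 cells led by *Rspo3*, *Ntm* and *Nap1l5*, against 342 and 380.1 CPM in CGE interneuron-like cells. These clusters entered no comparison, and the differences were not tested.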

How the results depend on the processing

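Of 60 comparisons of single genes, 54 kept direction and call under every alternative fitted with both embryos, and of 720 such alternative values 711 kept both, 6 lost the call and 3 reversed. *Kcnip4* in deep-layer against upper-layer neuron-like cells was -1.51 with at least 500 detected genes, -0.58 with at most 5% mitochondrial counts and 0.06 with at least 2000 genes. In CGE against MGE interneuron-like cells, *Kcnd2* was -0.93 at Leiden resolution 0.5, where *Kcnn1* (0.43) and *Kcnq5* (0.47) lost their call, as did *Kcnq5* with doublets kept (0.39) and *Kcnj3* (1.06) and *Kcnh5* (1.40) at resolution 2. The count of called members in that comparison was 33 at resolution 0.5, 9 higher and 24 lower, against 17 in the report, with a CGE interneuron-like class of fewer cells. The cause of these changes was not tested. With the embryo as a block, 35, 51, 39, 41, 17 and 37 members were called in the comparisons in the order of the text, against 33, 50, 37, 38, 17 and 37, and the block ended none of the named calls.

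The summed *Kcn* level moved by more than the spread between embryos in these cases. With at least 2000 genes it was 1784.82 CPM in RGC-like, 2291.78 in IPC-like, 4896.95 in upper-layer neuron-like, 4047.34 in MGE and 3736.49 in CGE interneuron-like cells, and with at least 500 genes 4870.60 in upper-layer neuron-like cells. With at most 5% mitochondrial counts it was 2567.77 in IPC-like, 4795.87 in upper-layer, 5347.98 in deep-layer neuron-like and 3776.05 in CGE interneuron-like cells. With doublets kept it was 1798.14 in RGC-like, 2470.81 in IPC-like, 4755.92 in upper-layer, 5362.05 in deep-layer, 4193.62 in MGE, 3837.26 in CGE and 1900.80 in pericyte-like cells. At resolution 0.5 it was 1799.77 in RGC-like, 2324.45 in IPC-like, 4447.15 in upper-layer neuron-like and 1853.62 in CGE interneuron-like cells. At resolution 2 it was 2273.02 in IPC-like, 4618.07 in upper-layer, 5409.19 in deep-layer, 3975.09 in MGE and 3352.55 in CGE cells. With *Kcn* genes in the clustering it was 2347.95 in IPC-like, 4585.90 in upper-layer and 5369.69 in deep-layer neuron-like cells.

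With 1 embryo left out no spread remains, so only fold changes were computed. None of the 60 changed sign, and 7 moved by over 1.5 times, namely *Kcnc1* (-9.94 to -3.52), *Kcnh7* (-7.21 to -4.24), *Kcnj3* (-10.53 to -4.26) and *Kcnj8* (11.91 to 13.12) in pericyte-like cells, *Kcnc2* in the layers (-5.07 to -3.86), *Kcnh8* in excitatory neurons (4.65 to 6.07) and *Kcnip4* in MGE interneuron-like cells (-2.99 to -1.62). Pericyte-like values rest on 51 and 45 cells, where 3 UMIs equal 2.74 CPM.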
